A study of Rattus norvegicus with 50 samples.

Results

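The kininogens, plasma kallikrein and the kinin receptors were followed as 6 genes of the rat lung, among 25357 genes measured on one-colour microarrays: the kininogens Kng1, Kng1l1 and Kng2, the protease Klkb1, and the receptors Bdkrb1 and Bdkrb2. Kng1 and Kng1l1 were selected on their exposed minus control differences, being higher in exposed rats at every day. The other 4 were added as a further kininogen, plasma kallikrein and the kinin receptors. Male F344 rats, 12 weeks old, breathed an aerosol of TiO2 P25 nanoparticles at 10 mg/m3 through the nose for 6 hours a day, 5 days a week, over 4 weeks, and control rats breathed air. The accessory lobe of the lung was taken when exposure ended, called D0, or after a further 3, 28, 90 or 180 days, called D3, D28, D90 and D180, from 5 control and 5 exposed rats at each day, which gave 50 arrays of 1 lung each. Whole lobe RNA was measured, so more RNA per cell and more cells of the type that makes it cannot be told apart in any value below.

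Kininogens are proteins of the blood plasma, made mainly by the liver, that carry a short kinin peptide and also inhibit cysteine proteinases. Plasma kallikrein, the product of Klkb1, cuts bradykinin out of the kininogens that release it. Whether it acts on the products of Kng1 or Kng1l1 was not tested. The B2 receptor (Bdkrb2) binds bradykinin and is present in resting tissue, while the B1 receptor (Bdkrb1) appears in inflamed tissue and binds kinins that have lost their last arginine. The rat has, beside the kininogens that release bradykinin, T-kininogens, which are known as proteins of the acute phase response to inflammation.

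Gene symbols of the rat kininogens have been exchanged since the array was designed, and the array's symbols are used here. The array's Kng1 is the RefSeq gene now called Kng2, whose synonyms include Tkg and Map1, names of T-kininogen. The array's Kng1l1 is now Kng1, and the array's Kng2 is now Kng2l1. In the RefSeq order of rat chromosome 11 the 3 genes follow each other and are followed by Hrg and the fetuin genes Fetub and Ahsg, all of the same protein superfamily. Bdkrb2 and Bdkrb1 are neighbours on chromosome 6 and Klkb1 lies on chromosome 16.

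Each gene was read by 1 probe of 60 bases, printed on 2 spots of the array. The kininogen probes are shown because how alike they are bears on whether the 3 genes were read apart. In the file headers' build, rn4, they lie at chr11:80127589-80127648 on the plus strand (Kng1), chr11:80013720-80013779 on the minus strand (Kng1l1) and chr11:80172931-80172990 on the plus strand (Kng2); exon annotation of that build was not used here. The capitals mark the longest run of bases that the Kng1 and Kng1l1 probes share.
Kng1 probe: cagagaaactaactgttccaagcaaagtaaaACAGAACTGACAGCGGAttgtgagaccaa
Kng1l1 probe: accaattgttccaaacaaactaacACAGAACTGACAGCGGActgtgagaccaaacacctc
Kng2 probe: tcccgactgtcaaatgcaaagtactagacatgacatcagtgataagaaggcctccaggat

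The shared run of the Kng1 and Kng1l1 probes was 17 bases long, and in the best ungapped stretch 47 of 53 bases were the same. Among the other 30366 gene probes of the array, no probe besides this pair shared 16 or more bases in a row with any of the 6 probes. The longest run shared by the Kng1 and Kng2 probes was 8 bases, and that of the Kng1l1 and Kng2 probes 6 bases. The array's annotation lists Ensembl transcripts in common for the Kng1l1 and Kng2 probes. Whether either of these probes reads the RNA of the other gene was not tested. How far the Kng1 probe binds Kng1l1 RNA, or the reverse, was not tested, so their values may not be wholly separate measurements.

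The promoters of the 3 kininogens are shown because the 3 genes are neighbours and differed in how far exposed and control lungs were apart. They are the 250 bases before the annotated start in RefSeq's GRCr8: chr11:91418220-91418469 on the plus strand (the array's Kng1), chr11:91340149-91340398 on the minus strand (Kng1l1) and chr11:91483169-91483418 on the plus strand (Kng2, the more upstream of its 2 windows). RefSeq windows were matched for 5 of the 6 genes, Bdkrb2 being the other. The capitals mark 3 motifs searched on both strands from 250 bases before to 50 after the start: CTGGGAA, the core of an interleukin-6 response element, TTCNNNGAA, a STAT motif, and TTGCNNAA, a C/EBP motif.
Kng1 promoter: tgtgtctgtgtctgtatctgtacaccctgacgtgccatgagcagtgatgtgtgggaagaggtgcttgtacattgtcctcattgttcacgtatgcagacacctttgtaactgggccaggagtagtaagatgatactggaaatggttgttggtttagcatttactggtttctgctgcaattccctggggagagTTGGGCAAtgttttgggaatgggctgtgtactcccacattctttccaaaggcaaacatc
Kng1l1 promoter: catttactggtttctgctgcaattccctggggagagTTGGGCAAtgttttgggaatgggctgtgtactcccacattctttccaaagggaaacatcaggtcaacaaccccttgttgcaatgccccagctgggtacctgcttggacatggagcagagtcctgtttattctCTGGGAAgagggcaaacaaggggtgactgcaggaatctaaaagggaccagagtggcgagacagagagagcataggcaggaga
Kng2 promoter: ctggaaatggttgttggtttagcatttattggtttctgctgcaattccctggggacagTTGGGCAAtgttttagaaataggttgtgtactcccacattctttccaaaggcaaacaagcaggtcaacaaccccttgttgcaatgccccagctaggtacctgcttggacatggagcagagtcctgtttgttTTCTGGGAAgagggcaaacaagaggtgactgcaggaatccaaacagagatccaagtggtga

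The promoters were alike over long stretches. Kng1 and Kng1l1 were the same at 143 of 144 aligned positions, with the annotated start of Kng1 lying 155 bases further upstream, and Kng1l1 and Kng2 at 258 of 279. CTGGGAA was found 82 bases before the start of Kng1l1 and 59 before that of Kng2, where it overlaps TTCNNNGAA. The Kng1 window, ending upstream of the aligned place, held neither. TTGCNNAA lay 59 bases before the start of Kng1, 214 before that of Kng1l1 and 192 before that of Kng2. The more downstream Kng2 window held CTGGGAA and TTCNNNGAA but not TTGCNNAA. TTGCNNAA also lay 208 bases before the start of Klkb1, whose window held neither other motif, and the Bdkrb1 window held none. Of 33469 rat promoter windows of the same length, 11.3% held CTGGGAA, 8.87% TTCNNNGAA and 10.6% TTGCNNAA. These are matches of letters only.

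Kng1 and Kng1l1 were 3.21 to 6.06 times as high in exposed as in control lungs at every day, and no exposed rat fell into the range of the controls of its day. Since these differences chose both genes, they are given as a description, with no test. Values are log2 of the quantile normalized signal, so 1 unit is a doubling. On D0, Kng1 was 9.10, 8.67, 9.05, 9.56 and 8.96 in the 5 control lungs and 11.22, 11.07, 11.06, 11.11 and 11.09 in the 5 exposed lungs. On D3, it was 8.83, 8.63, 8.996, 8.78 and 8.74 in controls and 11.30, 11.38, 11.28, 10.93 and 11.30 in exposed lungs. On D28, it was 8.52, 8.85, 8.50, 8.52 and 8.61 in controls and 10.84, 11.30, 10.68, 10.99 and 11.35 in exposed lungs. The groups were thus far apart through the first month, with the lowest exposed lung 1.5, 1.93 and 1.84 log2 units above the highest control of D0, D3 and D28. On D90, Kng1 was 8.76, 8.92, 9.16, 8.67 and 9.04 in controls and 10.58, 10.53, 9.92, 11.11 and 10.83 in exposed lungs, and on D180 8.82, 8.84, 8.76, 9.04 and 8.75 in controls and 10.77, 10.80, 10.56, 10.61 and 10.83 in exposed lungs. The narrowest gap was that of D90, 0.76 log2 units, and it was set by exposed replicate 3, the lowest exposed lung of that day.

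**Figure D1:**
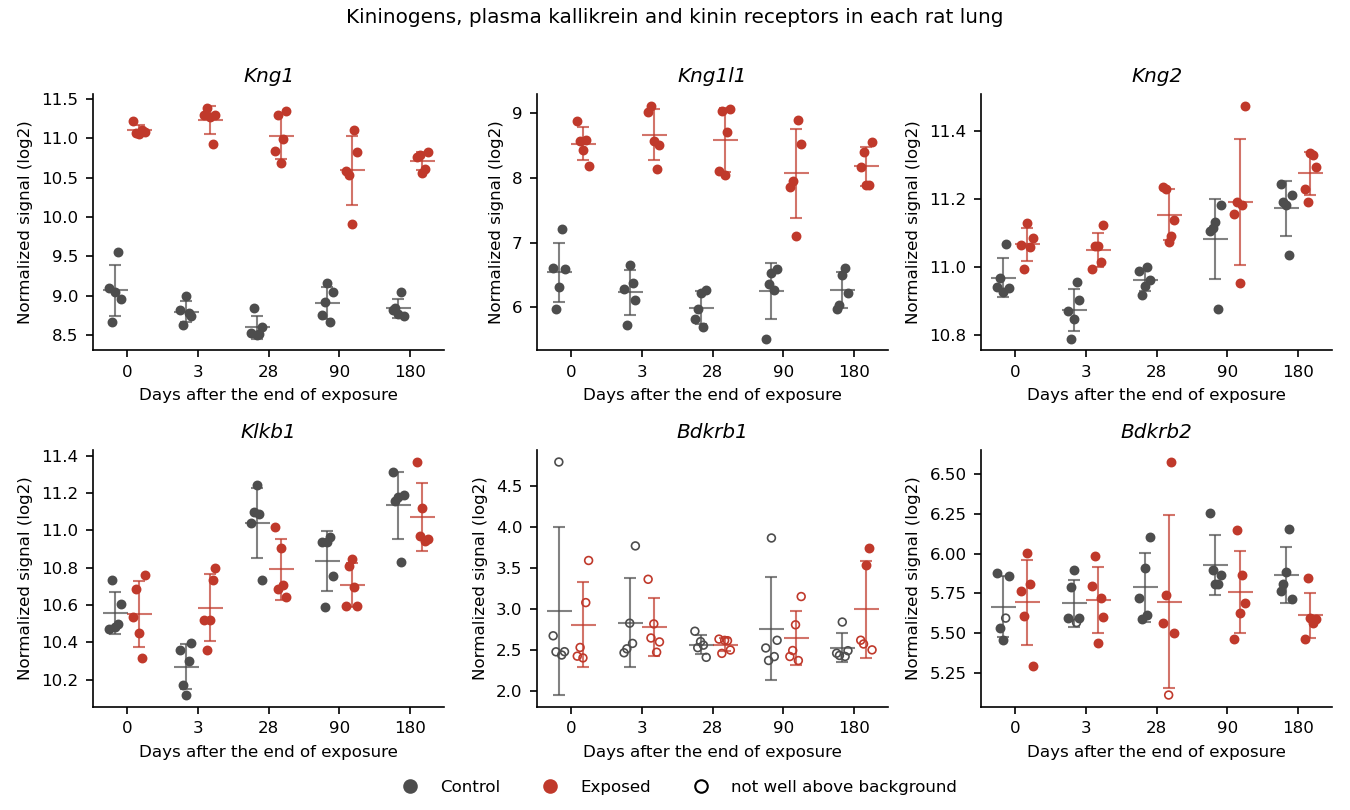
Normalized signal (log2) of the 6 genes in each lung, by days after the end of exposure, with controls in grey and exposed rats in red; horizontal marks and bars are the mean and SD of 5 lungs, open circles are arrays where the probe was not well above background, and each panel has its own scale. Exposed and control lungs are apart at every day for Kng1 and Kng1l1 and mostly overlap for the other genes, and Bdkrb1 is well above background in only 2 lungs.

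The mean difference of Kng1 was 2.04 log2 units on D0, a 4.12-fold difference (95% interval 3.37 to 5.05), 2.44 on D3 (5.44-fold, 4.44 to 6.65), 2.44 on D28 (5.41-fold, 4.42 to 6.62), 1.68 on D90 (3.21-fold, 2.63 to 3.93) and 1.87 on D180 (3.66-fold, 2.99 to 4.47). Its standard error was 0.14 at each day (n = 5 per group). Ranked by the size of the increase among 25357 genes, Kng1 stood at place 37 on D0, 20 on D3, 9 on D28, 23 on D90 and 15 on D180. Genes over-expressed at 1.5-fold or more with an adjusted p under 0.05 made up 2.76%, 1.97%, 0.86%, 0.245% and 0.237% of all genes at these days, and genes with all 5 exposed lungs above all 5 controls 4.73%, 3.33%, 2.22%, 2.18% and 2.75%.

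Kng1l1 moved as Kng1 did, from a lower signal. On D0, Kng1l1 was 6.60, 5.97, 6.31, 7.21 and 6.59 in controls and 8.88, 8.57, 8.43, 8.58 and 8.18 in exposed lungs. On D3, it was 6.28, 5.72, 6.65, 6.38 and 6.11 in controls and 9.01, 9.12, 8.57, 8.14 and 8.50 in exposed lungs. On D28, it was 5.81, 5.97, 6.23, 5.69 and 6.26 in controls and 8.10, 9.04, 8.05, 8.71 and 9.07 in exposed lungs. No exposed lung reached down to the controls, the gaps being 0.97, 1.49 and 1.78 log2 units. On D90, it was 5.51, 6.35, 6.52, 6.26 and 6.59 in controls and 7.86, 7.94, 7.10, 8.90 and 8.53 in exposed lungs, and on D180 5.98, 6.03, 6.49, 6.60 and 6.21 in controls and 8.16, 8.39, 7.89, 7.89 and 8.55 in exposed lungs. Exposed replicate 3 of D90 was again the lowest exposed lung of its day, 0.51 log2 units above the highest control.

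The mean difference of Kng1l1 was 1.99 log2 units on D0, a 3.98-fold difference (95% interval 2.78 to 5.69), 2.44 on D3 (5.43-fold, 3.80 to 7.75), 2.60 on D28 (6.06-fold, 4.24 to 8.65), 1.82 on D90 (3.53-fold, 2.47 to 5.05) and 1.91 on D180 (3.77-fold, 2.64 to 5.38), with a standard error of 0.26 (n = 5 per group). It stood at places 42, 21, 7, 15 and 12 of 25357 genes. The differences of Kng1 and Kng1l1 were 0.16 log2 units or less apart at each day. With normexp background correction, which added an offset of 50 to each signal, the difference of Kng1l1, the dimmer gene, was smaller. It was 2.68-fold on D0, 3.25-fold on D3, 3.35-fold on D28, 2.34-fold on D90 and 2.41-fold on D180. That of Kng1 stayed between 2.89-fold and 4.86-fold. The part of the offset in this was not tested. With slide as a block the differences were 2.06, 2.40, 2.39, 1.68 and 1.92 for Kng1 and 2.02, 2.30, 2.47, 1.82 and 2.01 for Kng1l1. Across the array, 54 genes (0.213%) had all 5 exposed lungs above all 5 controls at every day, and Kng1 and Kng1l1 are 2 of them by the way they were chosen.

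**Figure D2:**
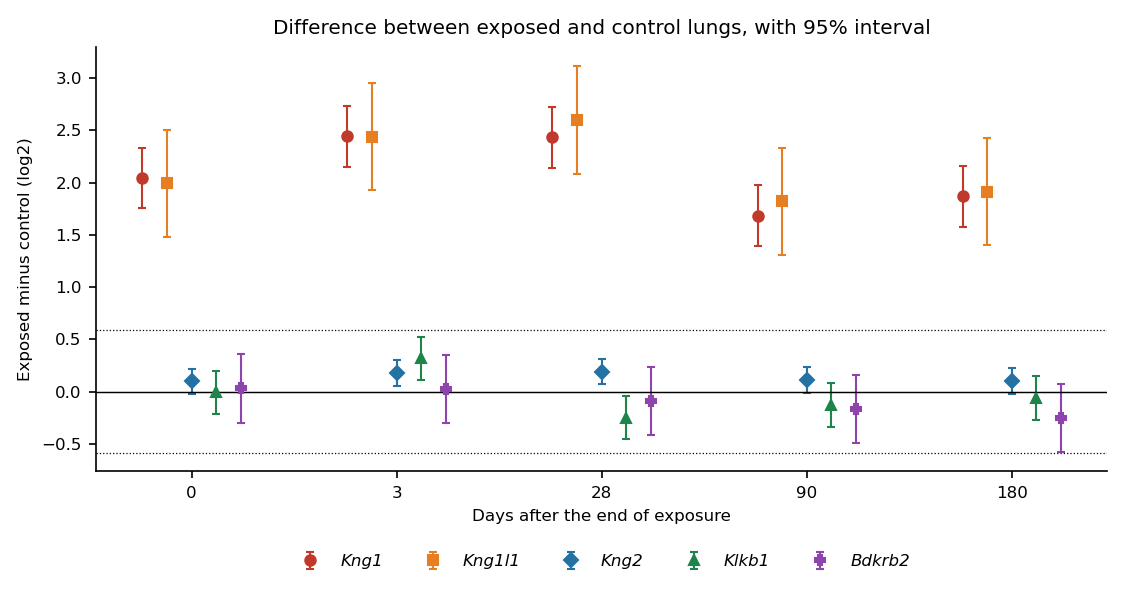
Exposed minus control difference (log2) of 5 of the genes by days after the end of exposure; bars are 95% intervals from limma and dotted lines mark 1.5-fold. Kng1 and Kng1l1 lie between 1.68 and 2.60 at all 5 days, and Kng2, Klkb1 and Bdkrb2 between -0.25 and 0.32; Bdkrb1, not well above background on most arrays, is left out.

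The arrays of D0, D3 and D28 shared 4 slides and those of D90 and D180 shared 3 others, apart from 1 exposed array of D3 that lay on a later slide, so days are compared only within these sets. In exposed lungs the mean of Kng1 ran from 11.24 on D3 to 11.11 on D0 and 11.03 on D28, steps of 0.13 and 0.08 that were smaller than the SD of the lungs (0.18 and 0.29). Its mean was 10.71 on D180 and 10.59 on D90, a step of 0.12 against an SD of 0.44. In control lungs the mean of Kng1 was 9.07 on D0, 8.80 on D3 and 8.60 on D28, and 8.91 on D90 and 8.84 on D180. Only the step from D3 to D28 in controls, 0.20, was larger than the SD of either group, 0.15.

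In control rats alone, Kng1 was 0.47 ± 0.14 (SE) log2 units lower on D28 than on D0 (limma, adjusted p = 0.0379), short of 1.5-fold. The choice of Kng1 and Kng1l1 did not use this contrast itself. The same control values entered the differences that chose them, so its test is not independent of that choice. For Kng1l1 the same contrast was -0.54 ± 0.26 (adjusted p = 0.229). Of all genes, 2.46% passed both 1.5-fold and the test between these control groups, 2.32% between D3 and D0, 0.635% between D28 and D3 and 0.0197% between D180 and D90. Of the 6 genes only Klkb1 did, between D28 and D3. The exposed minus control difference of Kng1 was 0.40 (95% interval -0.01 to 0.81) log2 units larger on D3 than on D0 and 0.39 (-0.02 to 0.80) larger on D28 than on D0, again given with no test. For Kng1l1 these were 0.45 (-0.28 to 1.18) and 0.61 (-0.12 to 1.33). Between D180 and D90 the difference changed by 0.19 (-0.23 to 0.60) for Kng1 and 0.09 (-0.63 to 0.82) for Kng1l1.

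Kng2, the third kininogen, differed little between exposed and control lungs. The largest differences were on D3 and D28. On D3, Kng2 was 10.87, 10.79, 10.85, 10.95 and 10.90 in controls and 10.99, 11.06, 11.06, 11.01 and 11.12 in exposed lungs, a difference of 0.18 ± 0.06 (SE) log2 units or 1.13-fold (limma, adjusted p = 0.0511). On D28, it was 10.99, 10.92, 10.94, 10.998 and 10.96 in controls and 11.23, 11.23, 11.07, 11.09 and 11.14 in exposed lungs, a difference of 0.19 ± 0.06 or 1.14-fold (adjusted p = 0.0653). The 5 exposed lungs lay above all controls on both days, as 3.33% of all genes did on D3 and 2.22% on D28, with gaps of only 0.04 and 0.08. On D0, D90 and D180 the groups overlapped and the differences were 0.10, 0.11 and 0.10 (adjusted p = 0.368, 0.847 and 0.783).

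The call for Kng2 on D3 and D28 depended on the setting. With slide as a block the adjusted p was 0.0230 on D3 and 0.0264 on D28, and with the arrays of that day alone it was 0.209 and 0.279, in each case at under 1.5-fold. The 95% interval of the difference reached up to 1.24-fold on D28, so a difference of the size of Kng1 lay outside it.

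Klkb1, which encodes plasma kallikrein, did not pass 1.5-fold at any day. On D3, Klkb1 was 10.36, 10.17, 10.12, 10.30 and 10.40 in controls and 10.52, 10.36, 10.52, 10.73 and 10.80 in exposed lungs, a difference of 0.32 ± 0.10 (SE) log2 units or 1.25-fold (limma, adjusted p = 0.0376). The groups overlapped by 0.04. With the arrays of that day alone the adjusted p was 0.155. On the other days the differences were -0.01 on D0, -0.25 on D28, -0.13 on D90 and -0.06 on D180 (adjusted p = 0.990, 0.187, 1.00 and 1.00), and the difference between the D3 and D0 effects was 0.33 ± 0.15 (adjusted p = 0.424). From D3 to D28 the effect of Klkb1 went from 0.32 to -0.25, a change of -0.57 ± 0.15 (95% interval -0.86 to -0.27; limma, adjusted p = 0.0231), short of 1.5-fold. Its adjusted p was 0.0526 with each slide set fitted alone and 0.00577 to 0.0603 when 1 array was left out, above 0.05 without control replicate 3 of D3 (0.0538), exposed replicate 5 of D3 (0.0594), control replicate 3 of D28 (0.0603) or exposed replicate 5 of D28 (0.0559). This contrast, and that of control rats between the same days, was added after the data had been seen.

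Among control rats, Klkb1 was 0.77 ± 0.10 (SE) log2 units higher on D28 than on D3 (limma, adjusted p = 1.60e-06), past 1.5-fold, and 0.48 ± 0.10 higher on D28 than on D0 (adjusted p = 0.0013), short of it. Its control mean was 10.56 on D0, 10.27 on D3 and 11.04 on D28, and its exposed mean 10.55, 10.59 and 10.79, so the D3 difference lay beside the lowest control mean. The D28 controls lay between 10.73 and 11.24 and the D0 controls between 10.47 and 10.73.

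The receptor of the inflamed state, Bdkrb1, was at the limit of what the arrays could read. Its probe was well above background on 2 of 50 arrays, both from exposed rats of D180. On that day Bdkrb1 was 2.46, 2.43, 2.84, 2.42 and 2.49 in controls and 2.62, 2.57, 3.53, 3.75 and 2.503 in exposed lungs, and the lungs at 3.53 and 3.75 are those above background. The groups overlapped, and the difference between the measured means of 2.53 and 3.00 did not pass the test (limma, adjusted p = 0.890). No fold is given, since the lowest level that could be read was above the mean of the exposed group. On the other 4 days Bdkrb1 was not well above background in any lung, so no change could be measured in either direction.

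Bdkrb2, the receptor of resting tissue, was measured well above background on 47 of 50 arrays, at 5.11 to 6.58 over all lungs. Its differences were 0.03, 0.02, -0.09, -0.17 and -0.25 log2 units on D0, D3, D28, D90 and D180, each with a standard error of 0.16. The groups overlapped at every day and the smallest adjusted p of the limma fit was 0.830. On D180, where the difference was largest, Bdkrb2 was 5.77, 5.81, 5.88, 6.16 and 5.71 in controls and 5.46, 5.85, 5.60, 5.57 and 5.59 in exposed lungs. The 95% interval there ran from 0.67-fold to 1.05-fold, so a 1.5-fold increase lay outside it.

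Of the genes that were not chosen for their values, Kng2, Klkb1 and Bdkrb2 were not called at any day, and Bdkrb1 could hardly be read, where 4.26%, 3.47%, 1.33%, 0.379% and 0.315% of all genes were called in either direction on D0, D3, D28, D90 and D180. Nor did the effects of Kng2, Klkb1 and Bdkrb2 differ by 1.5-fold with an adjusted p under 0.05 between days of the same slide set, where those of 0.67% of genes did from D0 to D3, 1.6% from D0 to D28, 1.26% from D3 to D28 and 0.0118% from D90 to D180.

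Kng1 and Kng1l1 also varied together from rat to rat within a group, a measure taken after the mean of each group was removed and so free of the exposure difference. Over the 50 lungs the correlation of these deviations was 0.851 (Pearson's r), and 0.842 with the slide removed as well. Both values come from the same RNA on the same array and from probes that share sequence. For Kng1 and Kng2 the correlation was 0.403, and 0.402 with the slide removed. For Kng1 and Klkb1 it was -0.415, and -0.167 with the slide removed. Exposed replicate 3 of D90 was low for Kng1, Kng1l1 and Kng2 alike.

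**Figure D3:**
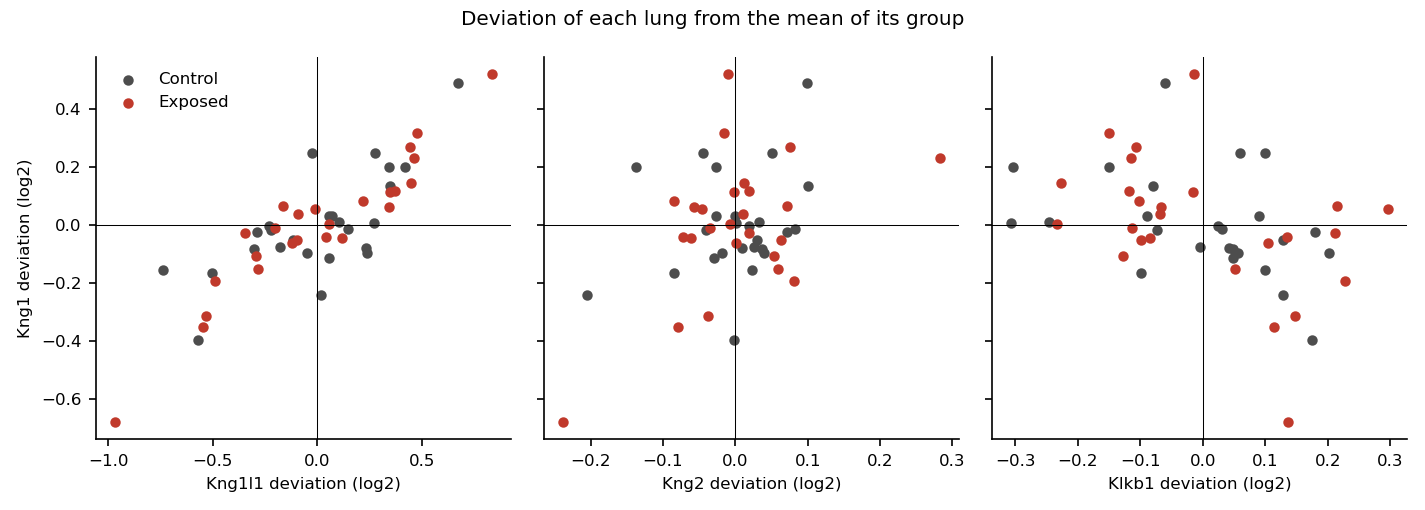
Deviation of each lung from the mean of its group (log2) for Kng1 on the vertical axis against Kng1l1, Kng2 and Klkb1 on the horizontal axes; each point is a lung, grey for controls and red for exposed rats. The points rise together for Kng1l1 (r = 0.851), loosely for Kng2 (r = 0.403) and run the other way for Klkb1 (r = -0.415).

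The genes most like Kng1 over the 50 arrays, with the mean of each day removed, were Kng1l1 (r = 0.981), Lpo, which encodes lactoperoxidase (0.975), Retnla (0.973), Orm1, which encodes the acute phase protein orosomucoid (0.969), and the chitinase gene Chia (0.955). For Kng1l1 they were Kng1, Lpo (0.977), Orm1 (0.948), Retnla (0.942) and Chia (0.923). For Kng2 they were Kng1 (0.703), Pon1 (0.689), Kng1l1 (0.686), Lpo (0.676) and Scn10a (0.667). These values hold the exposed minus control difference. Within groups, r with Kng1 was 0.664 for Lpo, 0.684 for Retnla, 0.432 for Orm1 and 0.215 for Chia.

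Beside the 6, lists of the kinin system, of the cysteine proteinases that kininogens inhibit, of cytokines and of the acute phase held 109 genes. Of these, 18 were higher and 3 lower on D0 (16.5% and 2.75%, against 2.76% and 1.5% of all genes). On D3, 19 were higher and 1 lower (17.4% and 0.917%, against 1.97% and 1.5%). Later, 8 were higher on D28 (7.34% against 0.86%), 2 on D90 (1.83% against 0.245%) and 1 on D180 (0.917% against 0.237%). The lists were chosen with earlier results of these data known, so these shares are a description. The acute phase list held 10 of the 18 on D0, 10 of the 19 on D3, 5 of the 8 on D28 and all of those on D90 and D180.

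Of 16 other genes of kininogen activation, which hold the coagulation factors F12 and F11, the tissue kallikreins, plasminogen and the C1 inhibitor gene Serping1, none was called higher at any day. Genes called higher made up 2.76%, 1.97%, 0.86%, 0.245% and 0.237% of all genes on D0, D3, D28, D90 and D180. The 9 tissue kallikreins were well above background on 0 to 19 of 50 arrays, so most of them could hardly be read. Plat, which encodes tissue plasminogen activator, fell by 0.92 ± 0.12 (SE) log2 units on D0 (limma, adjusted p = 1.63e-07), with all 5 exposed lungs below all controls, as for 3.75% of all genes. The median of the list, Klkb1 included, was 0.01 on D0 against -0.01 for all genes. F12 was higher by 0.14 to 0.36 over the days and Prcp, a protease that activates prekallikrein, by 0.21 to 0.38, without a call.

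Of 16 genes of kinin breakdown, Cpb2 alone was called. It encodes a carboxypeptidase that takes the last arginine from kinins, and it rose by 1.59 ± 0.31 (SE) log2 units or 3.02-fold on D0 (adjusted p = 0.000161), 0.98 or 1.97-fold on D3 (adjusted p = 0.0306) and 1.5 or 2.83-fold on D28 (adjusted p = 0.00164; limma). Its probe was well above background in all exposed lungs of these days but in only 2, 4 and 1 of the 5 controls. Genes called higher made up 2.76%, 1.97% and 0.86% of all genes on D0, D3 and D28. Ace, the enzyme of the lung endothelium that degrades bradykinin, differed by -0.46 to -0.12 and Mme, which encodes neprilysin, by 0.15 to 0.47, with no call. All 5 exposed lungs lay above all controls on D3, D28, D90 and D180 for Mme, as for 3.33%, 2.22%, 2.18% and 2.75% of all genes. For Ace all 5 lay below all controls on D0, as for 3.75% of all genes.

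Of 20 genes of receptor signalling, 18 were never called. The list had 1 gene lower on D0 and 1 higher on D3, where 1.5% and 1.97% of all genes were called so. Nos3, which encodes the endothelial nitric oxide synthase, fell by 0.84 ± 0.09 (SE) log2 units on D0 (limma, adjusted p = 4.10e-10). All 5 exposed lungs lay below all controls, as for 3.75% of all genes. Ptges, which encodes a prostaglandin E synthase, rose by 1.27 ± 0.28 or 2.42-fold on D3 (limma, adjusted p = 0.00132), with 2 of 5 controls well above background. The 4 endothelial markers Pecam1, Cdh5, Vwf and Cav1 had a median difference of -0.47 on D0, against -0.01 for all genes, and none was called. Their part in the values of Plat and Nos3 was not tested.

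Of 16 other cysteine proteinases and cystatin relatives, 3 were called higher on D0, 2 on D3 and none later. Genes called higher made up 2.76% of all genes on D0 and 1.97% on D3. Fetub, a fetuin gene beside the kininogens on chromosome 11, rose by 0.89 ± 0.26 (SE) log2 units on D0 and 0.97 ± 0.26 on D3 (limma, adjusted p = 0.0136 and 0.00894), with 3 of 5 exposed lungs above all controls on each day. Its neighbour Ahsg differed by -0.16 to 0.02 over the days, and Hrg was well above background on 2 of 50 arrays. Cst7, a cystatin of immune cells, rose 1.55-fold on D0 and 1.58-fold on D3. Ctsk, which encodes cathepsin K, rose 1.89-fold on D0.

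A list of 16 genes held the interleukin-6 family and its signalling and the cytokines Tnf and Il1b. Of them 3 were called higher on D0, Il6 among them, 4 higher and 1 lower on D3, and 1 higher on D28. Of all genes, 2.76%, 1.97% and 0.86% were called higher on these days, and 1.5% lower on D3. Osm, which encodes oncostatin M, rose on D0, D3 and D28 (1.52-fold, 1.79-fold and 1.54-fold, with adjusted p of 0.00126, 1.77e-05 and 0.00348 by limma), with all exposed lungs above all controls. The groups were apart in this way for 4.73%, 3.33% and 2.22% of all genes on these days. Tnf rose 3.42-fold on D0 and 2.48-fold on D3. Il6 itself passed the test on D0 but was not well above background in any lung of that day, so no fold is given for it. Socs3 (1.66-fold) and Il1b (1.57-fold) rose on D3, and Lifr fell by 0.65 log2 units. The receptor genes Il6r and Il6st and the factors Stat3, Cebpb and Cebpd were not called at any day.

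Of the 7 genes whose products bind kininogen at cell surfaces, Itgam, which encodes the alpha chain of the leukocyte integrin Mac-1, rose on D0, D3 and D28 (1.75-fold, 1.90-fold and 1.67-fold, with adjusted p of 1.46e-06, 1.43e-07 and 4.20e-05 by limma). Krt1 fell by 1.02 ± 0.30 (SE) log2 units on D0 (adjusted p = 0.0160), with 3 control and 2 exposed arrays well above background. The other 5 were not called. Over the whole array, 2.76%, 1.97% and 0.86% of genes were called higher on D0, D3 and D28, and 1.5% lower on D0.

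Of 18 acute phase genes known from the liver, 10 rose on D0 and 10 on D3, 5 on D28, 2 on D90 and 1 on D180, and none fell. Of all genes, 2.76%, 1.97%, 0.86%, 0.245% and 0.237% were called higher at these days. The median of the list was 0.71, 0.76, 0.32, 0.12 and 0.17 log2 units at these days, against -0.01 to 0.00 for all genes. Orm1 rose at every day, by 4.08, 4.69, 4.70, 3.30 and 3.47 log2 units (SE 0.38), with 3, 2, 1, 3 and 1 of 5 controls well above background. Lcn2, which encodes lipocalin 2, rose by 3.22 on D0 and 2.45 on D3, and was not called later. Hp, which encodes haptoglobin, and C3 of complement rose on D0, D3 and D28. Their exposed lungs lay above all controls at all 5 days, as for 0.213% of all genes. The classical acute phase gene Crp and the fibrinogen chain genes Fga and Fgb were well above background on 1, 2 and 0 of 50 arrays.

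**Figure D4:**
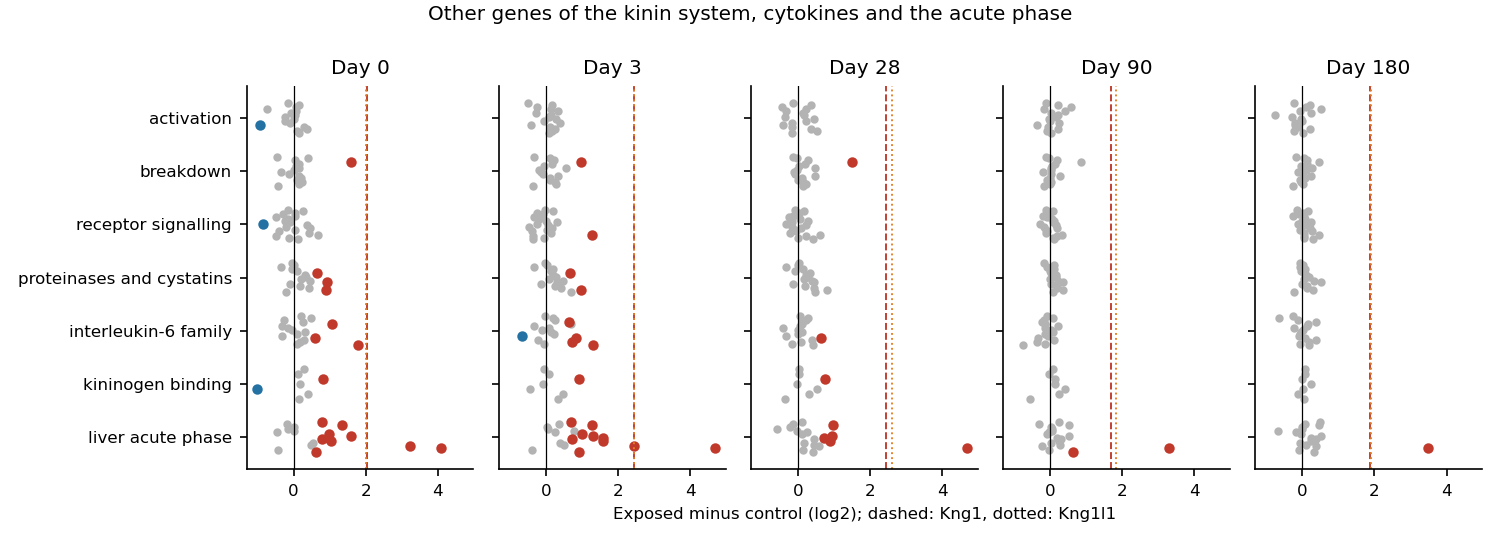
Exposed minus control difference (log2) of the listed genes of the kinin system, cytokines and the acute phase, by list and day; each point is a gene, red and blue where it was called higher or lower, grey where it was not, and the dashed and dotted lines mark Kng1 and Kng1l1, which were chosen for being higher at every day. Most called genes stand on D0, D3 and D28, and on D90 and D180 Orm1 lies at 3.30 and 3.47.

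Kininogens are best known from hepatocytes, so hepatocyte and other markers were read beside them. Of 12 hepatocyte markers, only Tf was called higher, by 0.76 ± 0.13 (SE) log2 units on D0 and 0.65 ± 0.13 on D3 (limma, adjusted p = 3.36e-05 and 0.000424). Apoa1 was called lower on D0, and Serpinc1 on D3 with 1 of 10 arrays well above background. Over the whole array, 2.76% of genes were called higher on D0 and 1.97% on D3, and 1.5% lower on each of these days. Alb, which encodes albumin, was well above background on 2 of 50 arrays, both from control rats, and Cps1 on 1. Tf, Ahsg and Apoc3 were well above background on all 50 arrays, Ttr on 36, Apoa1 and Apoa2 on 27 each and Cyp2c11 on 22. Apoh and Tat were so on 4 arrays each and Serpinc1 on 3. The summed signal of the 12 was 16704 to 21231 in controls and 21936 to 30990 in exposed lungs of D0, and 18382 to 23142 and 19776 to 25940 on D180. Without Tf, the sum of the other 11 was 4774 to 8070 in controls and 4378 to 7844 in exposed lungs of D0. That sum was mostly Ahsg, with log2 means of 12.50 in controls and 12.44 in exposed lungs of D0. The next brightest of the 11, Apoc3, had means of 6.53 and 6.21.

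The 8 lung epithelial markers, among them the surfactant genes Sftpc and Sftpb, were well above background in all 50 lungs and none reached 1.5-fold at any day. Sftpa1 was higher by 0.48 ± 0.07 (SE) log2 units on D0 (limma, adjusted p = 2.20e-06), 0.36 on D3 and 0.26 on D28 (adjusted p = 0.000302 and 0.0273), and Sftpd by 0.34 and 0.36 on D0 and D3 (adjusted p = 0.000293 and 0.000147). Ager differed the other way, by -0.39 on D0 (limma, adjusted p = 0.0286). Scgb1a1 differed by -0.27 on D0 and Foxj1 by -0.31 on D180, without passing the test (limma, adjusted p = 0.0691 and 0.0724). Sftpc had the highest value of all genes on 22 of 50 arrays. Among them were all 5 of exposed rats on D90, so a rise could not show there. Of 8 neutrophil markers, S100a8 and S100a9 rose on D0 and D3 and S100a9 on D28, and none was called on D90 or D180. The summed neutrophil signal was 30624 to 46324 in controls and 87855 to 129992 in exposed lungs of D0, and 22779 to 35040 and 33868 to 44342 on D180. That sum was mostly S100a8 and S100a9, and without them the other 6 summed to 1313 to 1989 in controls and 1523 to 2128 in exposed lungs of D0. Elane was not well above background on most arrays, at 2 of 50. Of 5 macrophage markers Siglec1 alone was called, on D3. Of 7 lymphocyte markers Cd79b was called, 0.68 higher on D0, of 5 smooth muscle markers Cnn1, 0.71 lower on D0, and of 4 mesothelial markers Upk3b and Wt1, 0.60 and 0.71 lower on D3. Genes called higher made up 2.76%, 1.97% and 0.86% of all genes on D0, D3 and D28, and those called lower 1.5% on D0 and on D3. The median difference was 0.52 for the lymphocyte and -0.55 for the smooth muscle markers on D0. It was -0.51 for the mesothelial markers on D3, against -0.01 for all genes on both days. The part of these cells in the kininogen values was not tested.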

How the data were processed

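RNA of 50 accessory lung lobes, 5 per group by the labels, was hybridised by the authors, 100 ng each, to one-colour Agilent arrays. The deposited intensity values were read and background-corrected with Feature Extraction 11.0.1.1 (per the file headers), with no scaling between arrays. The median processed signal per array was 198 to 473, and 68.7% to 84.5% of gene spots were well above background; the number of arrays limits the precision. Here gProcessedSignal was taken as log2 and quantile normalized in limma 3.58.1 (R 4.3.3). A probe was kept where 5 or more arrays exceeded the 95th percentile of their negative controls (29724 of 30367), with the brightest probe per gene (25357 genes, of 25885 names). Group means were fitted over all arrays, p-values were adjusted by Benjamini-Hochberg over all genes, and genes at 1.5-fold or more with adjusted p under 0.05 were called. "Well above background" is the flag of Feature Extraction.

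The members and gene lists were chosen with earlier results of these data known. List genes were named if called at 2 or more days or most changed at a day, and genes most like a member by Pearson's r, 5 each. The fit was tested on simulated data. The authors' value table, a linear intensity not centred, with array medians of 407.64 to 411.28, followed the raw spot medians (rank correlation at least 0.999993) and served as an alternative beside other scaling, background, filter, slide, replicate and left-out-array settings. Symbols and promoters were taken from RefSeq GRCr8.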

Additional observations from a re-analysis of the deposited data

Results flagged for a closer look

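In 8 of 60 sets of 5 lungs, 1 lung stood far from the other 4; chance alone marks about 1 such set in 20. Kng1 was 10.93 in exposed replicate 4 of D3, against 11.28 to 11.38 in the other lungs of that group. Kng2 was 11.07 in control replicate 4 of D0, against 10.93 to 10.97, and 10.88 in control replicate 4 of D90, against 11.10 to 11.18. Bdkrb2 was 6.26 in control replicate 1 of D90, against 5.81 to 5.90. The other 4 were single high values of Bdkrb1 in control lungs, all not well above background: 4.80 in replicate 3 of D0, 3.77 in replicate 5 of D3, 3.87 in replicate 3 of D90 and 2.84 in replicate 3 of D180.

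The exposed minus control difference of Klkb1 was 0.32 log2 units on D3 and -0.25 on D28, a change of -0.57 ± 0.15 (SE; limma, adjusted p = 0.0231), the one difference between days of the same slide set that passed the test among the 4 genes not chosen for their values.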

How the results depend on the processing

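The exposed minus control differences of Kng1 and Kng1l1 kept their direction in every setting. Small differences of members that were not called could change sign, as for Klkb1 on D0 (-0.03 to 0.04) and Bdkrb2 on D3 (-0.04 to 0.05). The list genes were compared between settings only as counts, so the direction of each was not followed. Normexp background correction gave Kng1l1 differences of 1.42, 1.70, 1.74, 1.22 and 1.27 log2 units on D0, D3, D28, D90 and D180 and Kng1 differences of 2.25 on D3 and 1.73 on D180. The authors' value table gave Kng1l1 1.55 on D0, 1.88 on D3, 1.90 on D28 and 1.42 on D180. Leaving out any array kept the Kng1 difference between 1.55 and 2.52 and that of Kng1l1 between 1.61 and 2.73. Of the 109 other pathway genes, 11 were higher on D0 and 5 on D28 with normexp, 5 on D28 with the arrays of that day alone or with the authors' table, and 1 on D90 with normexp or the authors' table. With no fold limit, 14 were lower on D0, 9 on D3 and 5 on D28, and 15 were higher on D28, 5 on D90 and 4 on D180. With slide as a block 1 was lower on D90 and 1 on D180. Leaving out an array gave 0 to 2 lower on D3 and 1 to 2 higher on D90. The change of the Klkb1 effect from D3 to D28 was -0.64 to -0.51 with 1 array left out, past 1.5-fold in 6 of 20 cases; the range over the other settings was -0.57 to -0.49. Means over all probes left the members as they were, since each has 1 probe. The stricter filter removed Bdkrb1. The median of all genes moved by at most 0.05. The causes were not tested.

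Replicate numbers did not pair the lungs: same-numbered control and exposed lungs correlated at -0.339 to 0.447, and 6 of 25 matched best by number. The replicate block left Kng1 at 2.04 on D0, gave 1 pathway gene higher and 1 lower on D90, and changed no call of a member.

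Genes called over the whole array numbered 1080 on D0, 880 on D3, 336 on D28, 96 on D90 and 80 on D180. Normexp gave 581, 477 and 140 on the first 3 days and 51 on D180, the authors' values 663, 539 and 167, the arrays of the day alone 524 on D3 and 121 on D28, the slide set alone 216 on D28, and slide as a block 152 on D90 and 139 on D180. Without exposed replicate 1 of D28 it was 523.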
